A study of Ovis aries with 12 samples.

Results

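The genes described here are 5 sarcomere genes of fast muscle fibres (MYH1, MYH2, TNNC2, TPM1 and MYL11) and 1 of slow fibres (MYH7), measured in fetal sheep close to term in the biceps femoris, a muscle of the thigh. They were found on a 1-colour Agilent sheep array by the name or RefSeq accession that the array gives each probe. All 6 were found, among 1025 gene names on the array, with 9 probes of 15008, 7 for the fast genes and 2 for MYH7. There were 6 arrays from control fetuses and 6 from fetuses whose mothers received cortisol. The ewes of both arms carried single fetuses. Cortisol (Solu-Cortef, a hydrocortisone salt) was given to the ewe, not to the fetus, at 1 mg/kg/day from about day 115 of gestation, and the control ewes received vehicle over the same time. Tissue was taken between day 139 and day 144, soon after labour had started, and the labels describe all 12 arrays as 140 days of gestation. The labels speak of 7 ewes per arm, and 6 arrays per arm were analysed here. No label states in so many words that each array is a separate fetus, so p-values measure the spread between these arrays.

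A sarcomere is the contractile unit of a muscle fibre, in which heads of myosin pull on actin filaments. The myosin heavy chain sets the speed of a fibre: MYH1 encodes the type 2X and MYH2 the type 2A chain of fast fibres, whereas MYH7 encodes the chain of slow, oxidative type 1 fibres and of the ventricle of the heart. TNNC2, the calcium-binding troponin C of fast fibres, and TPM1, an alpha-tropomyosin that is used in fast fibres and, as other splice forms, in heart and smooth muscle, switch the thin filament on and off. MYL11, which the array lists under its older name MYLPF, is the regulatory light chain of fast myosin. In late fetal life, limb muscles lay down the mix of fast and slow fibres with which the animal is born.

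All signals are log2 units relative to the 75th percentile of the same array, so 0 is the level that 75% of an array's probes do not exceed, and 1 unit is a doubling. Levels of different probes were not compared with each other, because each probe binds with its own strength. All 9 probes were well above background on all 12 arrays and none was saturated.

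The probe sequences decide how many independent measurements these are, and are given as the scanner files list them, 60 bases each. Capitals mark the run of 44 bases that the MYH1 probe shares with the MYH2 probes.
MYH1: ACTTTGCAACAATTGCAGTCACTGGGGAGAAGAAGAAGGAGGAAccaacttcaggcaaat
MYH2 probe 1: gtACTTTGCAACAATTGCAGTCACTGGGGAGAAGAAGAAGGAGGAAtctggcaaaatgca
MYH7 probe 1: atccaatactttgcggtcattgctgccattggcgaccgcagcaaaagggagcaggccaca
MYH7 probe 2: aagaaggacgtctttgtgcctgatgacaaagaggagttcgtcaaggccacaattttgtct
TPM1: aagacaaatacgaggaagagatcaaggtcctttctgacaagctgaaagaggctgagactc
TPM1 clone probe 1: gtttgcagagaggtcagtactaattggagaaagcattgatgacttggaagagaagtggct

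MYH1 and MYH2 lie next to each other in the sheep genome (RefSeq, assembly ARS-UI_Ramb_v3.0), and their probes read the same stretch of both messages, so these probes do not separate type 2X from type 2A myosin. The second MYH2 probe overlaps the first by 59 of 60 bases, as do the 2 TNNC2 probes with each other. The 7 fast probes therefore cover 4 separate sites. The 2 MYH7 probes are different: they share no run longer than 8 bases, so they are separate readings of the slow chain. Laid beside the MYH1 probe without gaps, MYH7 probe 1 matched it at 30 of 53 bases and MYH7 probe 2 at 22 of 52, and neither shares 20 bases in a row with any other probe on the array. The TPM1 clone probe is 1 of 2 unnamed probes whose cDNA clone stands among the accessions of the TPM1 probe. It was added as a further reading after its values had been seen, and it shares no run longer than 8 bases with the TPM1 probe.

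A single array has to be named before any comparison, since it decides most of the values below. Control array 3 had little fast myosin and much slow myosin signal. It was singled out after its values were known, so what follows is a description of 1 array and carries no test.

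MYH1, the fast 2X chain, was at 0.50 on control array 3 and between 4.92 and 5.93 on the other 5 controls. The other controls averaged 5.48 ± 0.39 (SD, n = 5), which is 31.6 times the signal of control array 3. MYH2, the 2A chain read at the same site, was at 0.79 there by its first probe against 5.00 to 5.71 on the other controls, and at 0.55 against 4.85 to 5.61 by its second. Both MYH2 probes thus showed the same gap, 23.9-fold and 25.9-fold.

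TPM1, the tropomyosin, had the widest gap of the 6 genes. It was at 3.19 on control array 3 and between 9.25 and 9.70 on the other controls, a 77.8-fold difference. The TPM1 clone probe followed it closely, with 1.51 against 7.89 to 8.36, and its r with the TPM1 probe was 0.972 over the 11 arrays other than control array 3. The second unnamed clone probe did not share the gap: it was at 0.23 on control array 3 and between 0.38 and 0.72 on the other controls.

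The remaining fast genes were lower on that array by less. TNNC2, the troponin C, was at 8.44 by its first probe against 10.23 to 10.97 on the other controls, 4.48-fold lower in signal, and at 8.40 against 10.24 to 10.64 by its second. MYL11, the regulatory light chain, was at 8.84 against 9.64 to 10.22, or 2.14-fold. The order of the gaps was thus TPM1, then the fast myosins, then TNNC2, then MYL11.

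MYH7, the slow chain, went the other way. It was at 3.97 on control array 3 by its first probe and between 0.47 and 2.04 on the other controls, and at 3.81 against 0.30 to 1.94 by its second. Control array 3 therefore had 7.06 and 6.98 times the signal of the other controls at the separate MYH7 sites.

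**Figure D1:**
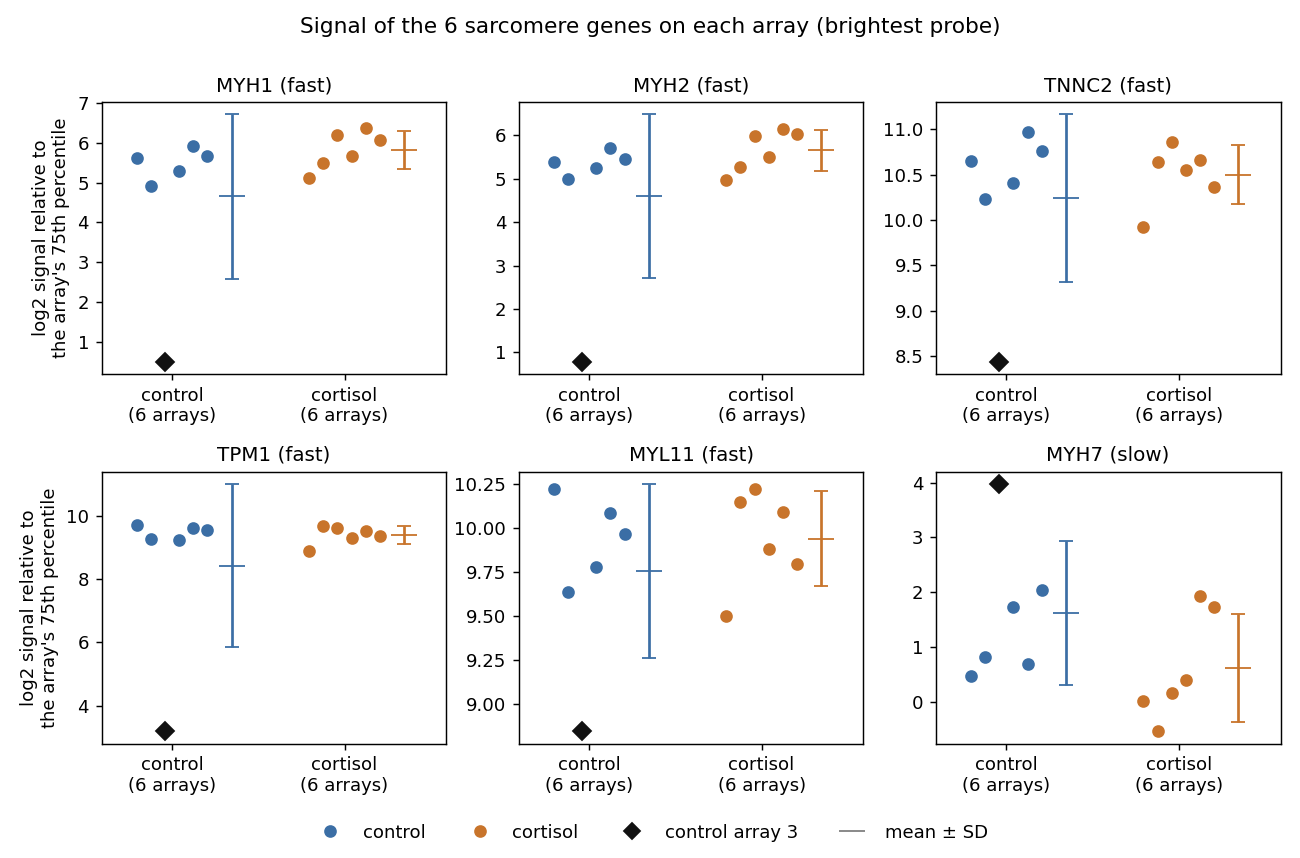
Log2 signal relative to each array's 75th percentile for the brightest probe of each gene, with 1 point per array, control arrays in blue, cortisol arrays in orange, control array 3 as a black diamond, and the mean ± SD of each group of 6 beside the points. Control array 3 lies below all other arrays in the 5 fast genes, at 0.50 for MYH1 and 3.19 for TPM1, and above all others for MYH7, at 3.97.

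Set against the whole array, all 7 fast probes were lower on control array 3 than on every other control, which held for 24.3% of the 10734 probes tested, and both MYH7 probes were higher, which held for 19.8%. A gap of at least 2 log2 units downward was seen in 6 of 7 fast probes, all but MYL11, against 0.96% of probes tested. An upward gap of that size was seen in both MYH7 probes, against 0.55%. Counted from the lowest gap upward, the TPM1 clone probe ranked 2, TPM1 5, MYH1 12, the MYH2 probes 14 and 13, the TNNC2 probes 84 and 97, and MYL11 397. Counted from the highest gap downward, the MYH7 probes ranked 16 and 17.

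**Figure D2:**
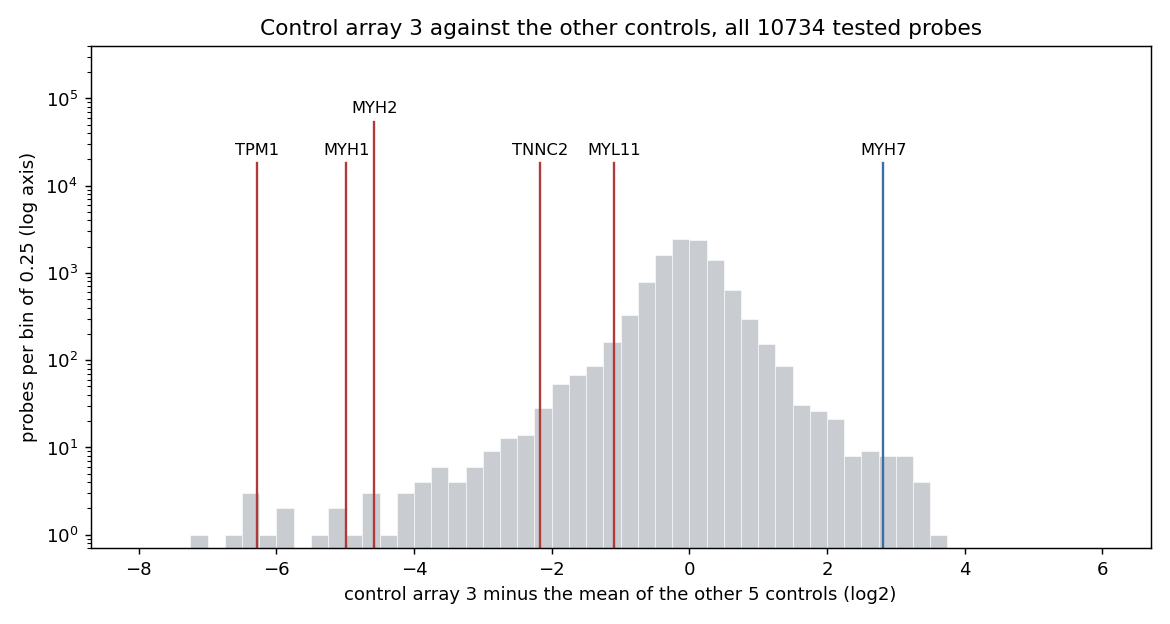
Number of probes (log axis) by the difference between control array 3 and the mean of the other 5 controls, in log2 units and bins of 0.25, over all 10734 tested probes, with a line at the brightest probe of each gene. TPM1 stands at -6.28, MYH1 at -4.98, MYH2 at -4.58, TNNC2 at -2.16 and MYL11 at -1.10, while MYH7 stands at 2.82 on the opposite flank.

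The brightness of control array 3 lay within that of the other arrays. Its 75th percentile was 288 intensity units in a range of 187 to 447 over the 12 arrays, and 10603 of its probes were well above background in a range of 9958 to 11403. In single probes it differed more from its group than any other control: 103 probes lay at least 2 log2 units below the mean of the other controls and 59 above, against 15 to 51 below and 9 to 31 above on the other controls. On the cortisol arrays these counts ran from 27 to 105 below and from 32 to 71 above. Myogenic genes were present on it. MYOD1, the transcription factor that commits cells to skeletal muscle, was at 1.83, inside the 1.63 to 2.27 of the other controls, and MYOG, which drives their differentiation, was at 0.41, just below their 0.44 to 0.97. Both were well above background on all 12 arrays, and MYF5, a further myogenic factor, on 8 of 12. MYF5 was at -3.40 on control array 3, above the -4.40 to -4.00 of the other controls. One part of the labels speaks of the left ventricular wall although title and tissue field give the biceps femoris, and none of the 13 cardiac markers looked for is on the array by name.

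Markers of other cell types were read as the mean log2 signal of each list's measured genes. On control array 3, smooth muscle markers (2 of 7 measured, CNN1 and MYLK) averaged 1.98 against 1.13 to 1.70 on the other controls. CNN1 was just above every other control, at 2.36 against 0.66 to 2.32. MYLK was within their range, at 1.61 against 1.08 to 1.69. Adipocyte markers (5 of 6 measured) averaged -1.44 against -2.30 to -1.62. Among the adipocyte genes LPL was above every other control, at 2.82 against 0.06 to 0.57, while PLIN1 and PPARG were below every other control. Erythroid markers (2 of 5, HBB and AHSP) averaged -2.14 against -1.41 to 1.03. The means of the fibroblast, endothelial, leukocyte, tendon and liver lists lay within the range of the other controls. Of the 4 fibroblast genes 2 were above every other control and 0 below, beside 19.8% and 24.3% of all probes tested. VIM was at 6.86 against 5.86 to 6.26, and DCN only just above, at 5.640 against 5.124 to 5.638. The 1 measured Schwann cell gene, GFAP, was at -0.01 against -1.03 to -0.07. The part of these cell types in the sarcomere values was not tested, and in a bulk sample fewer fibres of a type cannot be told apart from less message per fibre.

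The question of the study's design is whether maternal cortisol changed the fetal muscle's expression. For the sarcomere genes, no difference between the groups passed the test. By limma with Benjamini-Hochberg adjustment over all probes tested, 0 of the 9 probes passed an adjusted p of 0.05, as did 0 (0%) of the 10734 tested. At an unadjusted p under 0.05 there were 0 of the 9 and 732 of all probes (6.82%), and the smallest adjusted p of any probe was 0.693. In none of the 9 did all cortisol arrays lie above every control (0.0932% of all probes) or below every control (0.317%).

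All 5 fast genes had higher means after cortisol, beside 46% of all probes tested, and MYH7 had a lower mean, beside 54%. The median log2 fold change was 0.96 for the fast genes and -0.02 for all probes tested. Without control array 3 only 3 of the 5 fast genes were higher, their median was 0.00, and 45.2% of all probes were higher with a median of -0.03. The sign for all 9 probes was the same under the other background correction, the other scalings and the deposited values.

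Over all 12 arrays the fast myosins had the largest differences, and without control array 3 MYH7 had. MYH1 had a lowest, median and highest signal of 0.50, 5.45 and 5.93 in controls and of 5.11, 5.87 and 6.37 after cortisol. Cortisol arrays 3, 5 and 6 were above every control, and the other 3 lay within the control range. Its log2 fold change was 1.17 (SE 0.75, 95% interval -0.44 to 2.78, limma adjusted p = 0.772), and without control array 3 it was 0.34 (SE 0.25, interval -0.21 to 0.88, limma adjusted p = 0.811). Over all 28 alternatives the limma adjusted p of MYH1 ran from 0.546 to 0.998.

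MYH2 gave much the same picture at its shared site. By its first probe it ran from 0.79 through a median of 5.32 to 5.71 in controls and from 4.98 through 5.75 to 6.15 after cortisol, and again cortisol arrays 3, 5 and 6 were above every control. The log2 fold change was 1.06 (SE 0.69, limma adjusted p = 0.772), or 0.29 (interval -0.21 to 0.79) without control array 3. The second probe gave 1.03 and 0.25.

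TPM1 had the widest interval. Controls ran from 3.19 through 9.41 to 9.70, and cortisol arrays from 8.90 through 9.44 to 9.67, so that no cortisol array was above the highest control. Its log2 fold change was 0.96 with an interval of -0.996 to 2.92. Without control array 3 it was -0.08 with an interval of -0.45 to 0.28, so the direction of the mean difference turned.

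TNNC2 and MYL11 differed between the groups by less than the spread within a group. TNNC2 by its first probe ran from 8.44 through 10.53 to 10.97 in controls and from 9.92 through 10.60 to 10.86 after cortisol, with a log2 fold change of 0.26, or -0.10 (interval -0.52 to 0.31) without control array 3. MYL11 ran from 8.84 through 9.87 to 10.22 and from 9.50 through 9.99 to 10.22, with a log2 fold change of 0.18, or 0.00 (interval -0.37 to 0.37) without that array. In both genes the 2 groups overlapped, and cortisol array 1 was the lowest of the cortisol arrays, as it was for MYH1, MYH2 and TPM1.

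MYH7, the slow chain, ran from 0.47 through 1.28 to 3.97 in controls and from -0.53 through 0.29 to 1.93 after cortisol. Cortisol arrays 1 to 4 were below every control, whereas arrays 5 and 6 were as high as controls 4 and 6. Its log2 fold change was -0.999 by the first probe (SE 0.58, interval -2.25 to 0.25, limma adjusted p = 0.764) and -1.01 by the second. Without control array 3 the values were -0.53 (interval -1.52 to 0.46, limma adjusted p = 0.831, and 0.6 to 0.998 over all alternatives) and -0.54. Unlike the fast genes, MYH7 kept a wide spread without that array: its signal ranged over 2.57 log2 units on the other 11 arrays, against 1.45 for MYH1, 1.04 for TNNC2, 0.81 for TPM1 and 0.72 for MYL11.

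**Figure D3:**
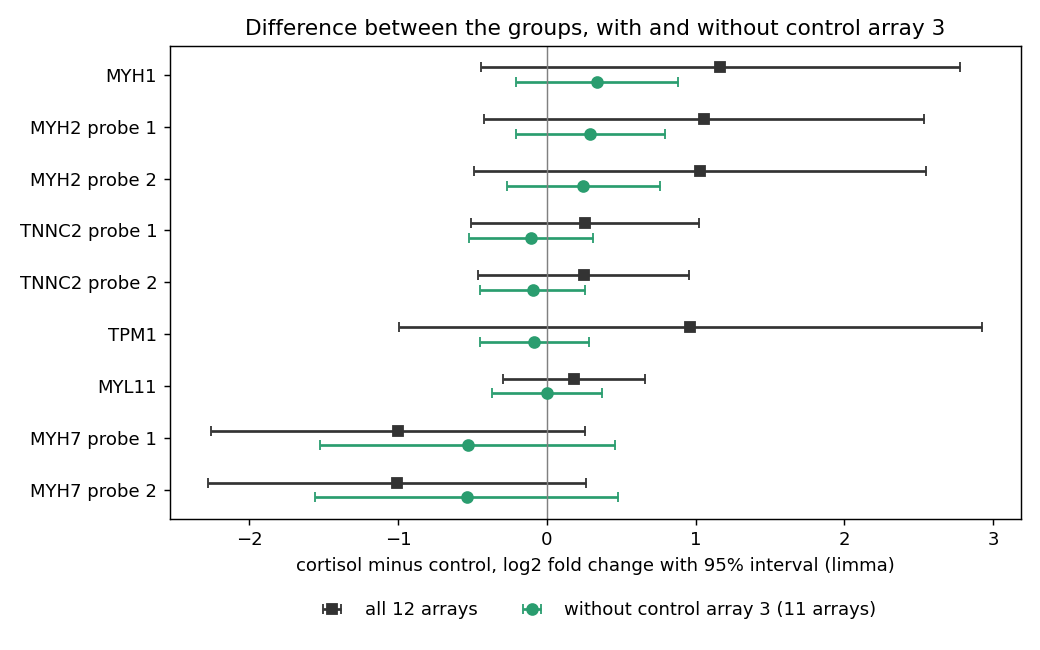
Cortisol minus control log2 fold change of each of the 9 probes with its 95% interval from limma, over all 12 arrays (black squares) and over the 11 arrays without control array 3 (green circles). All intervals include 0, and TPM1 moves from 0.96 to -0.08 and MYH7 probe 1 from -0.999 to -0.53 when that array is left out.

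Groups were balanced over the slides. Slide 1 held control and cortisol arrays 1 and 2, the first row of slide 2 held arrays 3 and 4, and its second row arrays 5 and 6, always 2 per group. Within slide 1 the log2 difference was 0.04 for MYH1, -0.21 for TPM1 and -0.90 for MYH7. In the row that holds control array 3 it was 3.03 for MYH1, 3.24 for TPM1 and -2.57 for MYH7. In the last row it was 0.43 for MYH1, -0.14 for TPM1 and 0.47 for MYH7. The sign for MYH7 thus differed between rows, and that for MYH1 did not, though in slide 1 it was close to 0.

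**Figure D4:**
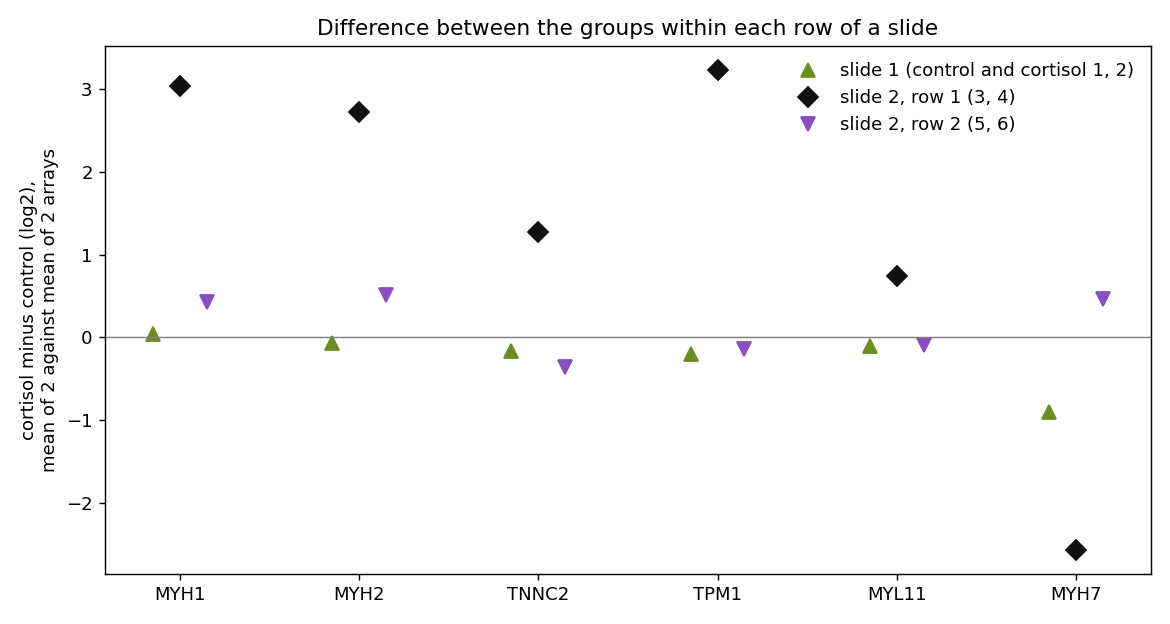
Mean of 2 cortisol arrays minus mean of 2 control arrays in log2 units, for the brightest probe of each gene in each of the 3 slide rows. The row that holds control array 3 (black diamonds) has the largest difference for all 6 genes, 3.03 for MYH1 and -2.57 for MYH7, and for MYH7 the last row has the opposite sign, 0.47.

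Whether fast and slow genes moved together over arrays was read from the 15 pairs of the 6 genes, with two-sided permutation tests and Benjamini-Hochberg adjustment over the 15. Over all 12 arrays, MYH1 and MYH7 had r = -0.652 (permutation p = 0.0675, adjusted 0.0724) and rho = -0.056 (permutation p = 0.868, adjusted 0.929). Without control array 3 and cortisol array 5, the 2 arrays farthest from the median of MYH1, r was 0.091. On the 11 arrays other than control array 3 it was 0.284 (permutation p = 0.39, adjusted 0.488). Over all arrays pooled, the negative r of fast with slow myosin therefore rests on control array 3.

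Within slide rows MYH1 and MYH7 were compared by counts, which carry no test. The 12 arrays form 6 pairs that share group and slide row, and in 5 of the 6 the array with more MYH1 had less MYH7. Of the 5 pairs without control array 3 this held in 4, all but cortisol arrays 5 and 6. MYH2, TNNC2, TPM1 and MYL11 each gave the same counts against MYH7, and since the 5 fast genes move together these are not separate counts. With group and row means removed, MYH1 with MYH7 had r = -0.828 and rho = -0.769, values in which control array 3 also shifts the arrays of its own group and row and which carry no p.

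Within the groups the sign of that pair differed. The 6 control arrays, control array 3 included, gave r = -0.873 (exact permutation p = 0.075, adjusted 0.0806). That array had the lowest MYH1 (0.50) and the highest MYH7 (3.97), and the control r rests largely on it. By rank the controls gave rho = -0.486 (exact permutation p = 0.356, adjusted 0.356). The 6 cortisol arrays gave r = 0.704 (exact permutation p = 0.142, adjusted 0.294) and rho = 0.771 (exact permutation p = 0.103, adjusted 0.257). The difference between the groups was not tested. On the 8 arrays of slide 2 alone r was -0.797, and -0.119 on the 7 of them without control array 3, while slide 1 has only 4 arrays and gives no value.

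The thin filament and light chain genes behaved otherwise. TPM1 and MYL11, whose probes share no more than 6 bases in a row, had r = 0.872 and rho = 0.916 over 12 arrays (adjusted permutation p for rho = 0.0003), and without control array 3 and cortisol array 1 r was 0.925 (permutation p = 0.0003, adjusted 0.0025). TNNC2 with MYL11 had r = 0.954 over 12 arrays and 0.816 without the same 2 arrays (adjusted permutation p = 0.0225), and TNNC2 with TPM1 had r = 0.946 and 0.765 (adjusted permutation p = 0.0414). By rank the TNNC2 pairs were weaker without those 2 arrays, with rho = 0.721 for MYL11 and 0.648 for TPM1 (adjusted permutation p = 0.117 and 0.162). The sign was the same in each group. The 6 control arrays, control array 3 included, gave r = 0.933, 0.964 and 0.973 for these pairs (adjusted exact permutation p = 0.0104, 0.0167 and 0.0167). In the 6 cortisol arrays alone r was 0.962 for TPM1 with MYL11, 0.971 for TNNC2 with MYL11 and 0.926 for TNNC2 with TPM1 (adjusted exact permutation p = 0.0347, 0.0208 and 0.0625). On slide 2 without control array 3 they were 0.891, 0.864 and 0.91 over 7 arrays (adjusted permutation p = 0.0585, 0.0603 and 0.0491). Cortisol array 1 had the highest 75th percentile, 447, and the lowest signal of all 3 genes apart from control array 3. Control array 5 had the lowest percentile, 187, and the highest TNNC2, 10.97. Apart from control array 3, all 3 genes tended to be lower on arrays with a higher percentile. That percentile is subtracted from all 3 alike, so it enters each of these correlations. The part of array brightness in these correlations was not tested. With quantile scaling over 12 arrays, TPM1 with MYL11 had r = 0.929 and TNNC2 with MYL11 0.932. Their adjusted permutation p rose from 5e-05 each to 0.0449 and 0.049, and to 0.0259 and 0.048 with the deposited values. These values include control array 3, and no r without it was taken with quantile scaling or the deposited values.

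Fast myosin went with these 3 genes less closely once control array 3 was left out. MYH1 had r = 0.972 with TPM1 and 0.948 with TNNC2 over 12 arrays, and 0.549 (adjusted permutation p = 0.142) and 0.658 (adjusted permutation p = 0.074) over 11. MYH7 with TPM1 had r = -0.732 over 12 arrays (adjusted permutation p = 0.048) and -0.042 over 11 (adjusted permutation p = 0.906), so the pooled r of this pair rests on control array 3 as well. Its rho over the 11 arrays was -0.173. With group and row means removed over 12 arrays its rho was -0.832. In that value control array 3 also shifts the arrays of its own group and row, and it carries no p. MYH1 and MYH2, read at 1 shared site, had r = 0.998 over 12 arrays and 0.978 over 11.

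**Figure D5:**
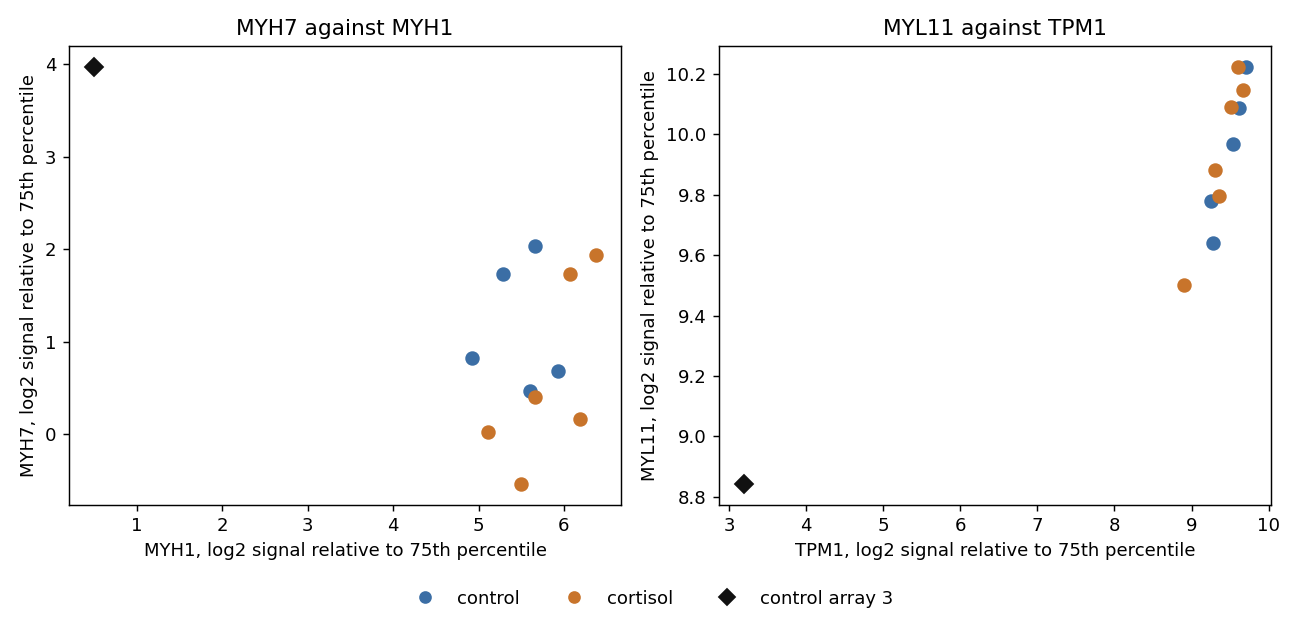
Log2 signals of MYH7 against MYH1 (left) and of MYL11 against TPM1 (right), each relative to the array's 75th percentile, with 1 point per array and control array 3 as a black diamond. On the left the 11 other arrays show no downward course (r = 0.284), while on the right the 11 other arrays rise together (r = 0.943).

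Other genes of the contractile programme were looked up in lists. The fast list had 5 of 14 genes measured, the 5 described here, and the slow list 1 of 12, MYH7. Neither the 2B myosin MYH4 nor the embryonic and neonatal chains MYH3 and MYH8 are on the array by name, and none of the 5 developmental genes was measured. Of 34 core sarcomere genes 2 were measured, 1 higher, 1 lower and 0 past the adjusted threshold. NEB, the giant ruler protein of the thin filament, was at 5.59 on control array 3, inside the 5.07 to 5.71 of the other controls, with a log2 fold change of 0.08. FHL1, a LIM protein of muscle, was at 6.18 there against 4.25 to 5.82 on the other controls, with a log2 fold change of -0.26.

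Of 23 regulators of fibre type 4 are on the array by name and 3 were measured, all with lower means, beside 54% of all probes tested, and 0 past the adjusted threshold. Leaving out control array 3 made 2 of the 3 higher, and the median went from -0.13 to 0.10. THRB, a thyroid hormone receptor, was at -0.94 on control array 3 against -2.53 to -1.43 on the other controls, and its log2 fold change was -0.52 (interval -1.07 to 0.03), or -0.34 without that array. PPARGC1A, a coactivator of oxidative metabolism, was at -0.04 there by its brightest probe against -1.90 to -0.83, with a log2 fold change of -0.09, or 0.10 without that array, and its 3 probes gave 2 lower means and 1 higher. RCAN1, an inhibitor of the phosphatase calcineurin that is itself raised by calcineurin activity, was at 5.05 on control array 3 against 1.42 to 2.97 on the other controls, and at 4.86 on cortisol array 1 against 1.57 to 2.17 on the other cortisol arrays. Its log2 fold change was -0.13, or 0.37 without control array 3. The arrays with these high values are also those on which all 5 fast genes were lowest within their group. The distances differed. On control array 3 MYH1 was at 0.50 against 4.92 to 5.93 on the other controls, and TPM1 at 3.19 against 9.25 to 9.70. On cortisol array 1 MYH1 was at 5.11 against 5.50 to 6.37 on the other cortisol arrays, and TPM1 at 8.90 against 9.31 to 9.67. The 75th percentile was 288 on control array 3 and 447, the highest of all arrays, on cortisol array 1. These arrays also differed in MYH7, which was 0.03 on cortisol array 1, and in the myogenic factors. MYOD1 was at -0.35 and MYOG at -0.48 on cortisol array 1, the lowest of all 12. How these values bear on each other was not tested. All 3 regulators were above every other control on control array 3, where 19.8% of all probes tested were.

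The genes whose course over the 12 arrays was most like that of MYH1 were taken from 586 named genes other than the 6 described here, by Pearson's r of values with each group's mean removed, as a description. On the same measure MYH1 had r = 0.998 with MYH2, 0.977 with TPM1, 0.965 with TNNC2 and 0.884 with MYL11. The 5 highest of the other genes were 2 records of GAPDH, an enzyme of glycolysis (r = 0.923 and 0.91), MSTN, the growth inhibitor myostatin (0.916), HACD1, an enzyme of very long fatty acid synthesis needed in muscle (0.9), and ENO3, the muscle form of enolase (0.898). Without control array 3 they were at 0.787, 0.769, 0.721, 0.463 and 0.329. MSTN was at -5.40 on control array 3 and between -1.41 and -0.67 on the other controls, and the brighter GAPDH record was at 8.18 against 9.21 to 9.77.

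Of the 586, the 5 genes most opposite to MYH1 were MYL6, a light chain of smooth muscle and non-muscle myosin (r = -0.919), LPL, lipoprotein lipase (-0.885), SNAI1, a repressor of epithelial genes (-0.831), NTN4, a netrin of basement membranes (-0.792), and MRCL3, a regulatory light chain of non-muscle myosin (-0.782). Without control array 3 they were at -0.628, 0.243, -0.055, -0.404 and -0.232. MYL6 was at 6.62 on control array 3 against 4.99 to 5.52 on the other controls, and LPL was at 2.82 against 0.06 to 0.57.

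For MYH7 the 5 most alike genes kept more of their likeness without that array. They were CPT1B, which carries fatty acids into muscle mitochondria (r = 0.889, and 0.765 without control array 3), PLIN5, a coat protein of lipid droplets in oxidative tissue (0.866 and 0.715), DNMT1, the maintenance DNA methyltransferase (0.843 and 0.874), FLT3LG, a blood cell growth factor (0.841 and 0.765), and ACSS2, an acetyl-CoA synthetase (0.828 and 0.623). CPT1B was at 3.66 on control array 3 against 2.42 to 2.67 on the other controls and 2.13 to 3.07 after cortisol. The 5 most opposite were ARL1 (-0.885), SLC25A26 (-0.859), ARFIP2 (-0.846), NCK1 (-0.81) and DOHH (-0.772), which without control array 3 were at -0.758, -0.72, -0.788, -0.642 and -0.861. Genes named for MYH1 and MYH7 were picked on all 12 arrays, so their r on 11 of these is not a separate reading. MYH7 also spread more widely than MYH1 on those 11, over 2.57 against 1.45 log2 units. Without control array 3, r with MYH7 over the 586 genes ran from -0.927 to 0.874, and r with MYH1 from -0.845 to 0.864.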

How the data were processed

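Total RNA was labelled with Cy3, per the labels. The submitters' processing notes name Agilent Feature Extraction 10.1.1.1. The deposited scanner files hold spot intensity, background-subtracted and detrended per the file headers, and flags of 0 or 1 as other values. The authors' series table holds log2 values; the tool behind them was not given in the sources used here. From the processed intensity, log2 values were taken and set relative to the 75th percentile of the array's non-control probes. Spots flagged as outliers were left out, and spots of a probe averaged. A probe entered the test when at least 6 arrays had it well above background (10734 of 15008). Cortisol was compared with control by limma 3.58.1 in R 4.3.3, two-sided and with no covariate. Correlations used 100000 permutations, or every order for up to 7 arrays, in Python 3.11.15 (scipy 1.17.1, numpy 2.4.6, pandas 2.3.3, matplotlib 3.10.9).

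The array names the myosins OMYHC2X, OMYHC2A and OMYHCS, which a table made by hand paired with MYH1, MYH2 and MYH7. The others were matched by RefSeq accession. A gene was read by its brightest probe, and 1658 probes have a gene name. Members and lists were chosen with earlier results of these data known. Genes named are the members, the measured genes of the fast, slow and developmental lists, up to 4 of the core and regulator lists by size of change, MYOD1 and MYOG, and the 5 genes most like and most opposite to MYH1 and to MYH7. MYF5, the cell type markers and the clone probes fall outside that rule. The tests were checked on simulated data. Alternatives were normexp background correction (offset 50), other scalings, the deposited values, other filters, blocks, single slides and rows, other variance models and each array left out.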

Additional observations from a re-analysis of the deposited data

Results flagged for a closer look

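Each of 36 groups of 6 arrays (18 probes in each arm) was searched for 1 array far from its nearest neighbour relative to the range of its group, a search that marks about 1 in 20 groups by chance. It marked 8 values, 7 of them on control array 3, and these 7 come from 3 separate fast sites and the TPM1 clone probe, so they are not 7 independent readings. On control array 3 the marked values were 0.50 for MYH1, 0.79 and 0.55 for the MYH2 probes, 8.44 and 8.40 for the TNNC2 probes, 3.19 for TPM1 and 1.51 for the TPM1 clone probe, all below the other controls. MYL11 (8.84) and MYH7 (3.97) on the same array were not marked. The remaining value was RCAN1 on cortisol array 1, at 4.86 against 1.57 to 2.17 on the other cortisol arrays.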

How the results depend on the processing

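Each log2 fold change was recomputed under 28 alternatives, and MYH1 kept its direction and its side of the threshold in all of them. No probe passed under 27 of the alternatives, and 1 passed on slide 1 alone, where each group has 2 arrays. All 4 arrays of slide 1 lie in 1 row, so that row alone is the same alternative.

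Leaving out control array 3 turned the sign of TNNC2, TPM1 and the TPM1 clone probe. Over all arrays left out in turn the log2 fold change ran from -0.10 to 0.40 and -0.094 to 0.36 for the TNNC2 probes, from -0.083 to 1.22 for TPM1 and from -0.089 to 1.28 for the clone probe. The number of fast genes with a higher mean ran from 3 to 5. The correlation with MYH7 ran from -0.736 to 0.284 for MYH1, from -0.719 to 0.381 for MYH2 and from -0.754 to 0.060 for TNNC2, and the highest value of each is the one without control array 3. With quantile scaling TNNC2 with TPM1 had r = 0.996, and its adjusted permutation p rose from 0.00026 to 0.0501. The adjusted permutation p also rose past 0.05 for MYH2 with TPM1, from 0.0088 to 0.0501. It did so for MYH1 with MYL11, from 0.0034 to 0.064, and for MYH2 with MYL11, from 0.0058 to 0.068. The r of these pairs was then 0.966, 0.880 and 0.868. With quantile scaling, the other pairs that had an adjusted permutation p under 0.05 stayed under it. TPM1 and MYL11 with MYH7 had r = -0.732 and -0.649 over 12 arrays (adjusted permutation p = 0.048 and 0.0435). With each array left out in turn, that p rose past 0.05 in 8 and 7 cases. Their r then ran from -0.785 to -0.042 and from -0.790 to -0.137, the highest without control array 3. After group and slide row means were removed, MYH1 with MYH7 had r = -0.828, with no p, as such residuals are not exchangeable.

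Fewer arrays turned other signs. On slide 1 alone the log2 fold change was -0.072 and -0.11 for the MYH2 probes, -0.16 and -0.075 for the TNNC2 probes, -0.21 for TPM1, -0.28 for the clone probe and -0.11 for MYL11, with 1 fast gene higher and a fast median of -0.11. In the second row of slide 2 it was -0.35 and -0.25 for the TNNC2 probes, -0.14 for TPM1, -0.16 for the clone probe, -0.086 for MYL11, and 0.47 and 0.54 for the MYH7 probes, with 2 fast genes higher and a fast median of -0.086. In the first row of slide 2 the fast median was 2.73.

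No label says that the replicate numbers pair the samples. Same-numbered arrays share a slide row, and their deviations from the group means correlated at -0.12 to 0.31, over 0.1 in 4 of 6 pairs, with 3 of 6 matching their own number best. As not every pair was over 0.1, the samples were not treated as paired. With the replicate block 0 probes passed, and the MYH1 log2 fold change stayed 1.17 with a limma adjusted p of 0.686. The number of arrays and the few named probes limit what can be read here, and the 95% interval of MYH1 spans -0.44 to 2.78.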
